A study of Rattus norvegicus with 20 samples.

Results

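The mir-378, mir-193, mir-365 and mir-455 families of the rat were followed through 15 tissues and blood serum. Their members are the precursors in the deposited list whose names begin with rno-mir-378, rno-mir-193, rno-mir-365 or rno-mir-455, together with the mature arms cut from them. The rule used names only, and it found 6 of the 444 precursors (mir-193a, mir-193b, mir-365, mir-378a, mir-378b and mir-455) and 8 of the 577 mature miRNAs. Of the 388 RefSeq names, 4 belonged to these families, and mir-378a and mir-193b had none among them. Small RNA was sequenced from untreated, non-drinking male Long Evans rats at postnatal day 35, which all groups share. The study describes them as a cohort of 3 animals set up to ask from which tissues serum miRNAs could come. Brain was represented by 3 whole hemispheres run singly and blood serum by 3 replicate libraries. Each of the 14 other tissues (subcutaneous abdominal fat, heart, kidney, large intestine, liver, lung, skeletal muscle, pancreas, skin, small intestine, spleen, stomach, testes and thymus) was 1 library pooled from 3 rats. Intervals for these tissues cover counting error only, since the spread between animals or preparations could not be estimated.

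A miRNA is cut from a hairpin precursor as a 5p or a 3p arm of about the same length, and bases 2 to 8 of the mature arm, the seed, largely set which mRNAs it pairs with. The genes treated here are known from energy metabolism. mir-378a lies inside Ppargc1b, which encodes a coactivator of mitochondrial biogenesis, and is known for its abundance in muscle. mir-193b and mir-365 have been studied in the formation of brown fat and muscle, and mir-455 in brown fat and cartilage. In the RefSeq annotation of GRCr8, mir-378b lay within Ncoa2, a nuclear receptor coactivator, and mir-455 within Col27a1, a collagen of cartilage. mir-193a and mir-365 both lay within Faul2, less than 20 kb apart, whereas mir-193b had no other annotated miRNA within 20 kb. mir-378a overlapped a further annotated miRNA on the opposite strand, mir-3557.

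The mature sequences from RefSeq (GRCr8) are given 5′ to 3′ with the seed in capitals, because the seed is what members of a miRNA family share. Of 11 arms looked up, 9 were found, and miR-378b and miR-455-5p are named only.
rno-miR-378a-3p: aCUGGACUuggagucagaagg
rno-miR-378a-5p: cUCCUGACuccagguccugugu
rno-miR-193a-3p: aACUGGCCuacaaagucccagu
rno-miR-193b-3p: aACUGGCCcacaaaguccc
rno-miR-365-3p: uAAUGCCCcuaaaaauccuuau
rno-miR-455-3p: gCAGUCCAcgggcauauacacu
The 3p arms of mir-193a and mir-193b had the same seed, and the other arms found had seeds of their own. Over the 19 bases that the 2 arms of mir-193 have in common, 1 differed, U9C (position counted from the 5′ end of miR-193a-3p), which lies just outside the seed. No mature miR-193b arm was among the 577 names counted, so mir-193b could be followed only as a precursor.

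Levels are given as RPM, the reads of a precursor scaled to the total of all precursor reads in its library, or for an arm to that of all mature reads. Brain libraries held 388275 to 1204552 precursor reads, the pools 162080 to 3685761 with a median of 593805, and the serum libraries 7556 to 10862. A level of 3 reads, taken as the floor, was 0.814 to 18.5 RPM in a pool, 2.49 to 7.73 RPM in a hemisphere and 276 to 397 RPM in a serum library. The pancreas library stood apart from its label. mir-216a and mir-217, which mark the exocrine pancreas, had 0 reads there, mir-216b had 1, and the islet miRNA mir-375 had 100 reads (496 RPM). It carried mir-122, the hepatocyte miRNA, at 14862 RPM where liver had 14726 RPM, and no further tissue exceeded 8.17 RPM. Results that rest on the pancreas library are therefore given with and without it. The labels of skeletal muscle and heart were checked against 7 precursors of striated muscle (mir-1, mir-133a, mir-133b, mir-206, mir-208a, mir-208b and mir-499), which summed to 70671 RPM in skeletal muscle and 32220 RPM in heart. mir-208a, a cardiac miRNA, was at 0 in skeletal muscle and mir-206, a skeletal muscle miRNA, was at 0 in heart. In the fat library, 5 precursors of blood cells summed to 13623 RPM, against 1592 RPM in heart and 777 RPM in skeletal muscle. Among the tissues only spleen (74846 RPM) and thymus (65650 RPM) were higher, and the part of blood cells in the fat levels was not tested. In bulk tissue, fewer cells of a type and less RNA per cell cannot be told apart.

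mir-378a was by far the most abundant member and was highest in striated muscle. Skeletal muscle held 72069 RPM (90780 reads, 7.21% of all precursor reads), which made it the 3rd most abundant precursor of that library. Heart followed with 24224 RPM from 13953 reads. Fat, with 10869 RPM from 5320 reads, was the 5th of the 15 tissues, below liver at 13742 RPM and small intestine at 12574 RPM. Next came stomach at 8548 RPM, kidney at 8131 RPM, skin at 7645 RPM, pancreas at 7466 RPM and large intestine at 7419 RPM. The lowest tissues were spleen at 4053 RPM, thymus at 2489 RPM, brain at 2483 ± 47.9 RPM (SD, n = 3), lung at 2249 RPM and testes at 1203 RPM. Skeletal muscle thus exceeded heart 2.98-fold (95% exact interval 2.92 to 3.03) and fat 6.63-fold (6.45 to 6.82), and heart exceeded fat 2.23-fold (2.16 to 2.30). The scaling of the fat library bore on this: with TMM fat was the 9th tissue, skeletal muscle exceeded it 9.95-fold (9.68 to 10.2) and heart exceeded it 3.50-fold (3.39 to 3.61). With DESeq2 size factors fat was also the 9th. These intervals cover counting error only, since the reads carry no molecular identifiers and the pools no replicates. In the order of the 15 tissues, 4 of the 14 neighbouring pairs had overlapping counting intervals: stomach and kidney, skin and pancreas, pancreas and large intestine, and thymus and brain.

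**Figure D1:**
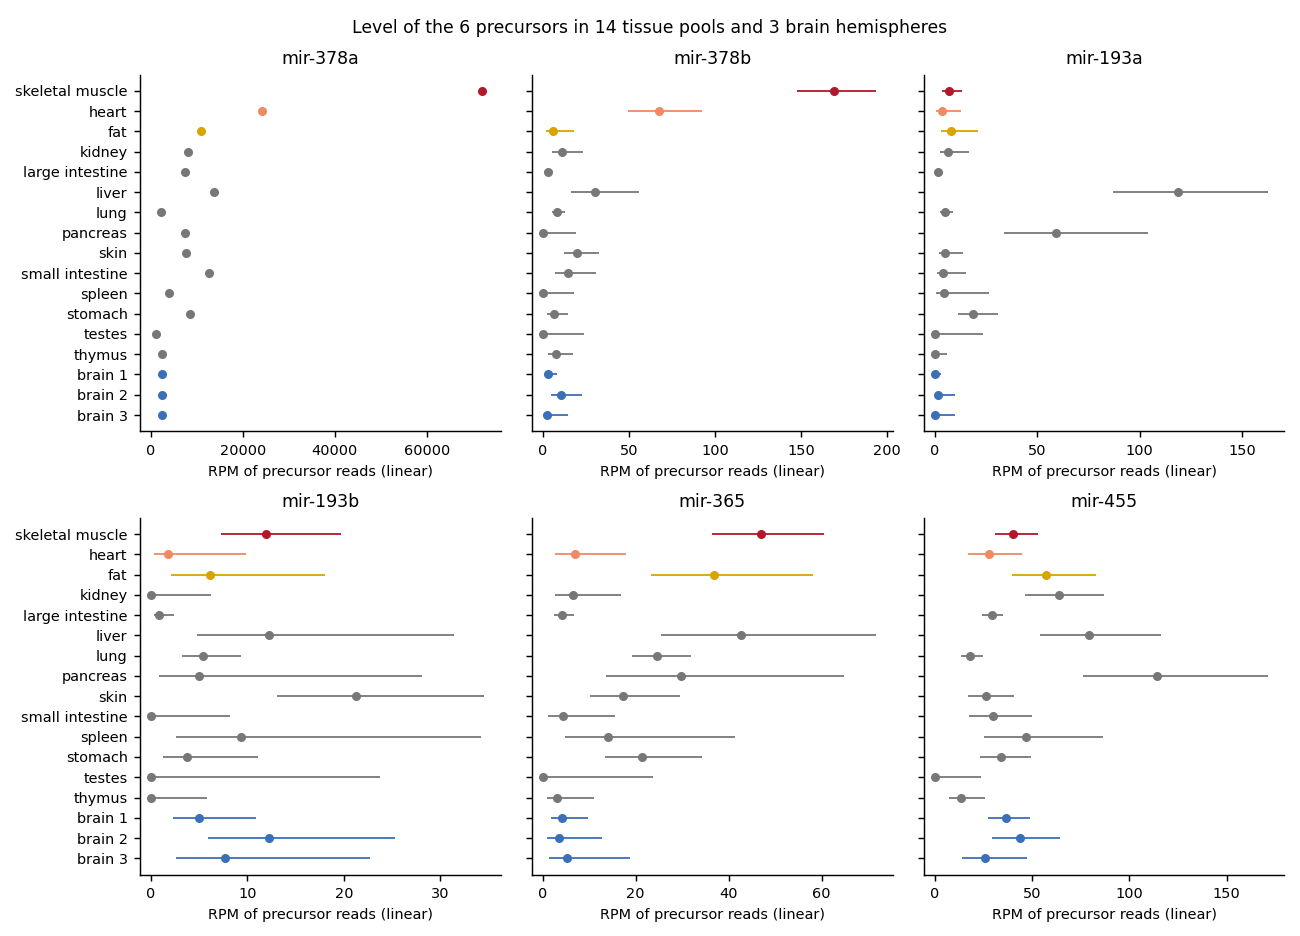
Level of each precursor (RPM of precursor reads, linear axis, a separate range for each panel) in the 14 tissue pools and 3 brain hemispheres, with points for libraries and bars for 95% Wilson intervals from the read counts. mir-378a and mir-378b peak in skeletal muscle with heart second. mir-193a is highest in liver and mir-455 in the library labelled pancreas, but each overlaps the next tissue in its interval. All neighbours in the order of mir-193b, of mir-365 and of mir-455 overlap.

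mir-378b, the second mir-378 gene, followed the same order at the top at a far lower level. It stood at 169 RPM (213 reads) in skeletal muscle and 67.7 RPM (39 reads) in heart, then at 30.5 RPM in liver and 19.9 RPM in skin. Fat had 3 reads, or 6.13 RPM, and brain 5.47 ± 4.38 RPM (SD, n = 3), while pancreas, spleen and testes had none. The ratio of skeletal muscle to heart was 2.50 (1.77 to 3.61), an interval that spans the ratio of mir-378a. The ratio of skeletal muscle to fat was 27.6 (9.31 to 135) against 6.63 for mir-378a, and 41.4 against 9.95 with TMM. As a share of the reads of both mir-378 precursors, mir-378b made up 0.234% (Wilson 95% interval 0.205 to 0.268) in skeletal muscle and 0.279% (0.204 to 0.381) in heart, which overlap. The share in fat was 0.0564% (0.0192 to 0.166), below both intervals, and that in large intestine was 0.0439% (0.0251 to 0.0767). Stomach, at 0.0736% (0.0314 to 0.172), also lay below both. Lung, where mir-378a was 2nd lowest, had 0.370% (0.240 to 0.572). Over all 20 libraries mir-378b gave 347 reads and mir-378a 180354. These are shares of reads with no correction for capture of the different sequences.

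**Figure D2:**
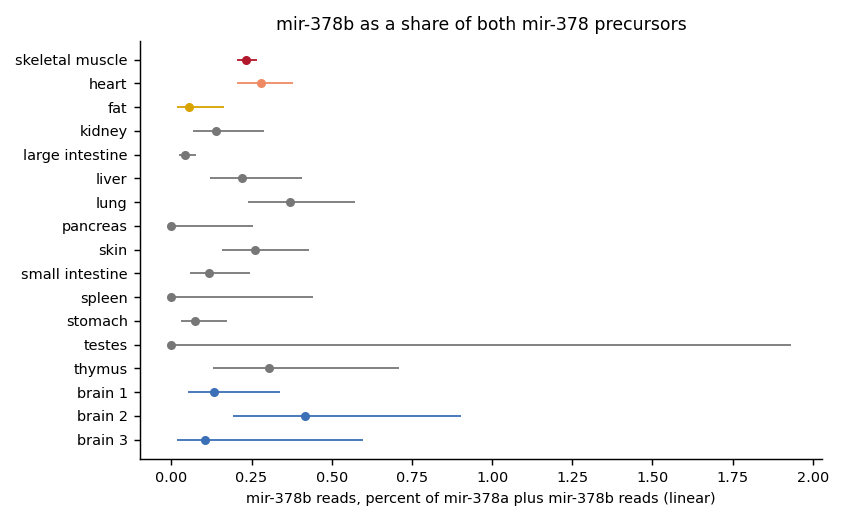
Reads of mir-378b as a percent of the reads of mir-378a and mir-378b together (linear axis) in 14 pools and 3 hemispheres, with 95% Wilson intervals. Skeletal muscle and heart overlap near 0.234% and 0.279%, and fat, large intestine and stomach lie below both intervals. The pools without a mir-378b read have intervals set by depth alone.

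The rise of mir-378a and mir-378b in skeletal muscle and heart ran beside that of the striated muscle list given above. In skin, the list summed to 2184 RPM and mir-378a was at its 15-tissue median, and in fat the list summed to 91.9 RPM, with 4 of its 7 precursors detected and mir-1, mir-206 and mir-208a at 0. In fat, mir-133a had 28 reads. The part of the cells behind this list in the mir-378 levels was not tested. Over the 15 tissues, the precursors most like mir-378a in log2(RPM + 1) were mir-133b (Pearson r = 0.74), mir-378b (0.74) and mir-133a (0.65), and those most like mir-378b were mir-133b (0.84), mir-133a (0.82) and mir-378a (0.74). Without the pancreas library mir-378a was most like mir-378b (0.81). mir-133a and mir-133b are miRNAs of striated muscle. These correlations are descriptions over 15 tissue values that share libraries and depth.

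Among mature miRNAs, the reads of mir-378a were listed almost wholly under another name. miR-378a-3p, the arm best known from metabolism, held under 0.001 reads in each of the 20 libraries, although the precursor had 14 to 90780 reads there. miR-3557-5p, an annotated arm of the opposite-strand gene, held 86753 reads in skeletal muscle, 13071 in heart and 4880 in fat. In the 3 hemispheres it held 2752, 1324 and 847 reads, and in the 3 serum libraries 7, 9 and 19. miR-3557 lies outside the member rule and was singled out after its values were seen. Its 5p arm is printed because its complement carries the mir-378a sequence.
rno-miR-3557-5p: gccuucugacuccaaguccagu
Read on the opposite strand, these 22 bases are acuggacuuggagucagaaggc, which holds all 21 bases of miR-378a-3p followed by 1 base more. The precursor mir-3557 had at most 7.07 reads in any library and 11.8 in all. miR-378a-5p and miR-3557-3p had the same count, within 0.01 reads, in all 20 libraries: 53 each in skeletal muscle, 100 each in all, and 0 in 7 libraries. The listed arms of mir-378a thus accounted for 0% to 0.318% of its precursor reads. With both names added, the share was 86.5% to 96.4% in the tissues and 37.5% to 79.2% in serum, where only 7 to 19 reads were involved.

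**Figure D3:**
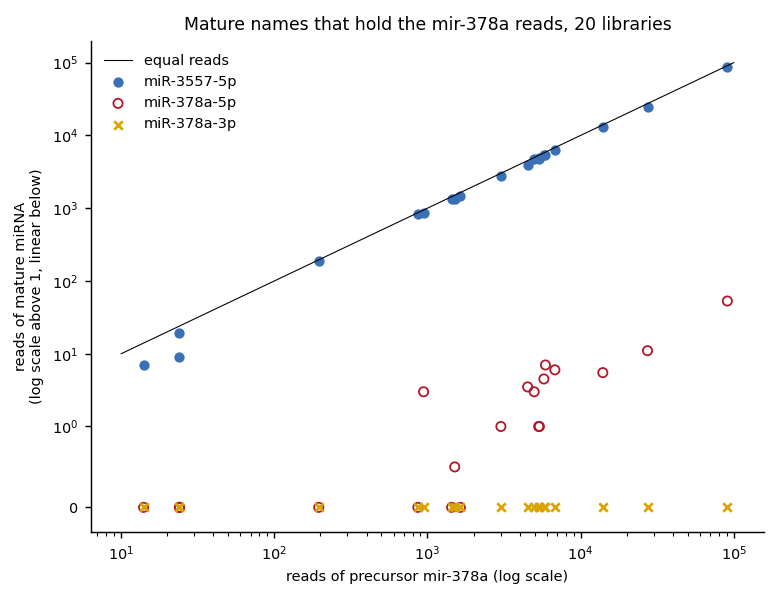
Reads of 3 mature names (log axis above 1 read, linear below) against reads of the precursor mir-378a (log axis) in the 20 libraries, with the line of equal counts. miR-3557-5p runs along the line up to 86753 reads in skeletal muscle, miR-378a-5p reaches 53 reads there, and miR-378a-3p lies at 0 throughout.

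Few other miRNAs had so small a share under their own names. In skeletal muscle, the median share of precursor reads listed under a miRNA's own arms was 77.8% over 121 miRNAs with at least 100 reads, and 6 of them were below 1%. Of the other members, the arms held 97.3% of the reads of mir-193a, 87.0% of mir-378b, 86.3% of mir-455 and 66.7% of mir-365, whose 5p arm was not in the list. Whether strand was used in the counting is not given in the sources used here, and its part in the naming was not tested. With the names of both strands counted as mir-378a, its 3p arm was at 105691 RPM of mature reads in skeletal muscle, 29699 RPM in heart, 15335 RPM in fat and 2671 RPM in brain, and the order of these tissues was that of the precursor. The 3p arm then made up 99.3% to 100% of both arms in every library.

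mir-193a was highest in liver, with low levels in muscle and fat. Liver held 119 RPM (39 reads) and the library labelled pancreas 59.5 RPM (12 reads), followed by stomach at 18.9 RPM (15 reads). Fat stood at 8.17 RPM, skeletal muscle at 7.14 RPM and heart at 3.47 RPM, from 4, 9 and 2 reads, and testes and thymus had none. The ratio of skeletal muscle to fat was 0.874 (0.244 to 3.89), so a difference between them was not detectable at this depth. With TMM it was 1.31 (0.366 to 5.83). The precursor most like mir-193a over the tissues was mir-122 (r = 0.83), which, like mir-193a, was high in the 2 libraries labelled liver and pancreas. mir-365, its neighbour in the genome, came next (0.78), and then mir-148a (0.76). Without the pancreas library these were 0.79, 0.78 and 0.68 over 14 tissues. Of the 109 reads of its arms, 2 were of miR-193a-5p, so that miR-193a-3p made up 98.2% (93.6 to 99.5).

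mir-193b, which shares the seed, gave 79 reads in all and had a different order. Skin was highest at 21.3 RPM from 16 reads, then liver at 12.2 RPM from 4 reads and skeletal muscle at 11.9 RPM from 15 reads. Fat was at 6.13 RPM from 3 reads and heart at 1.74 RPM from 1, while kidney, small intestine, testes and thymus had none. Brain, at 8.32 ± 3.68 RPM (SD, n = 3), had 4.98, 12.3 and 7.73 RPM in its hemispheres. All 14 neighbouring pairs in this order overlapped in their counting intervals, and with TMM or DESeq2 scaling of the libraries liver, not skin, was highest. Skeletal muscle exceeded heart 6.86-fold, with an interval of 1.06 to 289 that rests on 1 read and reached down to 0.854 with DESeq2 size factors. The precursors most like mir-193b over the 15 tissues were mir-365 (r = 0.75), mir-497 (0.74) and mir-299a (0.72), from few reads. Without the pancreas library these were 0.75, 0.75 and 0.71.

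mir-365 was highest in skeletal muscle, liver and fat, whose counting intervals overlapped when scaled to library totals. Its levels there were 46.8 RPM (59 reads), 42.7 RPM (14 reads) and 36.8 RPM (18 reads), followed by pancreas at 29.7 RPM and lung at 24.7 RPM. Heart was far lower than skeletal muscle, at 6.94 RPM from 4 reads. Skeletal muscle exceeded heart 6.74-fold (2.50 to 25.6), heart was at 0.189 of fat (0.0465 to 0.573), and skeletal muscle to fat was 1.27 (0.741 to 2.29). That last ratio became 1.91 (1.11 to 3.44) with TMM scaling, past 1, and 1.38 (0.802 to 2.48) with DESeq2 size factors. Heart to fat became 0.296 (0.0730 to 0.900) with TMM. With either scaling liver was the highest tissue for mir-365 and fat the 5th. Over the 15 tissues mir-365 was most like mir-193a (r = 0.78), mir-193b (0.75) and mir-455 (0.74). Without the pancreas library these were 0.78, 0.75 and 0.72. Its reads numbered 228 in all, so these likenesses rest on few reads.

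mir-455 was detected in every tissue but testes. The library labelled pancreas was highest at 114 RPM (23 reads), and without it liver led at 79.3 RPM, followed by kidney at 63.8 RPM, fat at 57.2 RPM and spleen at 46.9 RPM. Skeletal muscle had 40.5 RPM from 51 reads and heart 27.8 RPM from 16. All 14 neighbouring pairs overlapped. Heart was at 0.486 of fat (0.245 to 0.929) and skeletal muscle at 0.708 (0.438 to 1.17). The first interval spanned 1 with TMM, at 0.762 (0.385 to 1.46), and with DESeq2 size factors, at 0.650 (0.328 to 1.24), and the second ratio turned to 1.06 (0.657 to 1.75) with TMM. The 5p arm carried mir-455 nearly alone: miR-455-3p had 7 of 427 arm reads (1.64%, 0.796 to 3.34).

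Set against the median of each precursor over the 15 tissues on the log2(RPM + 1) scale, skeletal muscle was 4.31 higher for mir-378b, 3.24 for mir-378a, 1.67 for mir-365 and 1.12 for mir-193b. That is 4 of the 6 members at least 1 above their median, against 32.9% of the 295 precursors with at least 10 counts in 3 libraries. With 10 RPM added in place of 1, mir-193b was at 0.55 and 3 of 6 passed. Without the pancreas library in the median, mir-365 was at 2.13 in skeletal muscle and 1.79 in fat. In heart, 2 of 6 were that high, mir-378b at 3.00 and mir-378a at 1.66, against 19.0% of all precursors. With TMM scaling mir-378a in heart was at 0.95 and 1 of 6 passed. mir-365, mir-193b, mir-193a and mir-455 were below their medians in heart, at −0.92, −1.12, −0.43 and −0.28.

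In fat, 1 of 6 passed, mir-365 at 1.33, against 35.6% of all precursors. The other members stood at 0.73 for mir-455, 0.61 for mir-193a, 0.51 for mir-378a, 0.26 for mir-193b and −0.27 for mir-378b. The direction for mir-378a in fat turned with scaling: it was −0.85 with TMM and −0.22 with DESeq2 size factors. The median of all precursors in fat was 0.33 with library totals and 0 with TMM. Liver had 5 of 6 members at least 1 above their medians against 16.9% of all precursors, and mir-378a, at 0.85, was the exception. These rest on few reads: the lower Wilson bounds of mir-193b, mir-365 and mir-455 in liver were −0.05, 0.81 and 0.65, from 4, 14 and 26 reads. Counted over the mature arms, 3 of 8 passed in skeletal muscle against 36.1%, 2 of 8 in heart against 18.9% and 4 of 8 in fat against 38.8%. Of those 4 in fat, miR-193a-5p and miR-455-3p rested on 1 read each, and the others were miR-365-3p and miR-455-5p. The percentages cover the 291 arms with at least 10 counts in 3 libraries. miR-193a-5p, miR-378a-3p, miR-378a-5p and miR-455-3p missed that filter but stay among the 8. miR-378a-3p entered these counts almost without reads. With the miR-3557 names added it was at 3.34 in skeletal muscle, 1.51 in heart and 0.56 in fat.

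**Figure D4:**
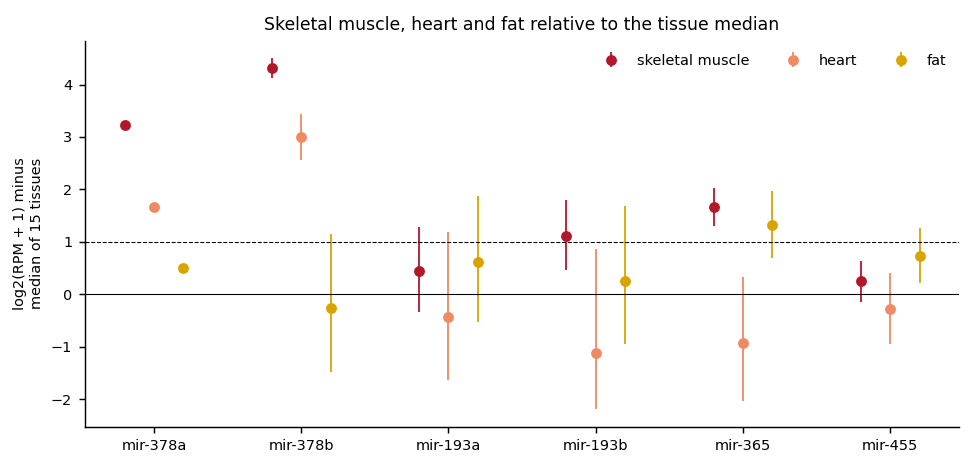
Level of each precursor in skeletal muscle, heart and fat as log2(RPM + 1) minus its median over the 15 tissues, with bars from the 95% Wilson interval of the library's count and a dashed line at 1. mir-378a and mir-378b lie above the line in skeletal muscle and heart, mir-365 in skeletal muscle and fat, and mir-193b in skeletal muscle only. mir-455 and mir-193a lie below it in all 3 tissues.

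Other precursors known from fat cells or lipid metabolism were counted for comparison. Of 22 listed, 20 had enough reads, and at least 1 above the median were 4 in skeletal muscle, 5 in heart and 6 in fat, with 2, 2 and 1 at least 1 below. All precursors stood at 32.9%, 19.0% and 35.6%, as given above. The medians of the list were −0.10, 0.23 and 0.23, beside 0.25, 0 and 0.33 for all precursors. The highest in skeletal muscle and in fat was mir-196a, at 1134 RPM and 987 RPM, 8.82 and 8.62 above its median. In heart it was mir-30c-2, at 7016 RPM or 1.96 above.

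For the comparison of brain with the other tissues, the 14 pools formed 1 group and their spread served as the error. For mir-378a the hemispheres had 2503, 2518 and 2429 RPM, and the pools ranged from 1203 to 72069 RPM with a median of 7888. Of the 14 pools, 11 lay above every hemisphere, lung and testes lay below, and thymus fell between them. By edgeR's quasi-likelihood test mir-378a was lower in brain, with a log2 fold change of −3.60 (SE 1.19, adjusted p = 0.0239). mir-365 was lower as well, at 4.15, 3.50 and 5.15 RPM in the hemispheres against a pool median of 15.7 RPM (edgeR log2 fold change −3.19, SE 1.07, adjusted p = 0.0259). mir-193a had 1 read in the 3 hemispheres together, and 12 of 14 pools lay above every hemisphere (−5.77, SE 2.09, edgeR adjusted p = 0.0369). Because that fitted change rests on 1 read, its counting ratio is also given: the summed pools exceeded the summed hemispheres 19.1-fold (3.35 to 760).

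These 3 of 6 members called lower compare with 18.6% of the 295 precursors tested, and none was called higher, against 24.1%. mir-378b (−3.23, SE 1.55, edgeR adjusted p = 0.0940), mir-455 (−1.49, SE 0.92, edgeR adjusted p = 0.173) and mir-193b (−0.47, SE 1.01, edgeR adjusted p = 0.704) did not pass. With library totals in place of TMM, mir-193b turned to 0.55. That scaling moved the median change of all 295 precursors from 0.17 to 1.20 and the calls from 71 higher and 55 lower to 123 and 24. In the mature list, miR-193a-3p (−5.84, edgeR adjusted p = 0.0271) and miR-365-3p (−2.98, edgeR adjusted p = 0.0331) were lower, against 24.1% of 290 arms tested. miR-378b (−3.62, edgeR adjusted p = 0.0600) and miR-455-5p (−1.69, edgeR adjusted p = 0.116) missed the threshold. miR-365-3p also missed it without the skeletal muscle pool (edgeR adjusted p = 0.0696) or without the fat pool (0.0593), and miR-378b passed it without the pancreas pool (0.0487). Without hemisphere 1, 2 or 3, edgeR adjusted p was 0.140, 0.0796 and 0.128 for miR-193a-3p and 0.140, 0.154 and 0.159 for miR-365-3p. miR-3557-5p, which held the reads of mir-378a, was lower too (−3.83, SE 1.15, edgeR adjusted p = 0.0134), with 0.0828, 0.0808 and 0.0865 when hemisphere 1, 2 or 3 was left out.

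The hemispheres are 1 tissue entered as 3 libraries, so these p-values can be too small. The calls were lost when this was changed, while the fold changes kept their direction. With the hemispheres summed into 1 library, edgeR called no precursor of any kind lower in brain (15 had an unadjusted p under 0.05), and adjusted p was 0.415 for mir-378a, mir-365 and mir-193a, at log2 fold changes of −3.53, −3.12 and −5.78. That fit has 1 brain library, assumed to vary like the pools. Without hemisphere 1, 2 or 3, edgeR adjusted p was 0.0849, 0.0891 and 0.0899 for mir-378a, 0.0895, 0.101 and 0.0786 for mir-365, and 0.131, 0.0764 and 0.114 for mir-193a. The fold changes were −3.69, −3.62 and −3.61 for mir-378a, −3.21, −3.05 and −3.29 for mir-365, and −5.06, −7.14 and −5.37 for mir-193a. With library totals adjusted p was 0.0653 for mir-378a, 0.0895 for mir-365 and 0.0529 for mir-193a, at −2.39, −2.09 and −4.65. Without the pancreas or without the skeletal muscle pool all 3 remained called, with log2 fold changes of −3.68 and −3.23 for mir-378a.

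**Figure D5:**
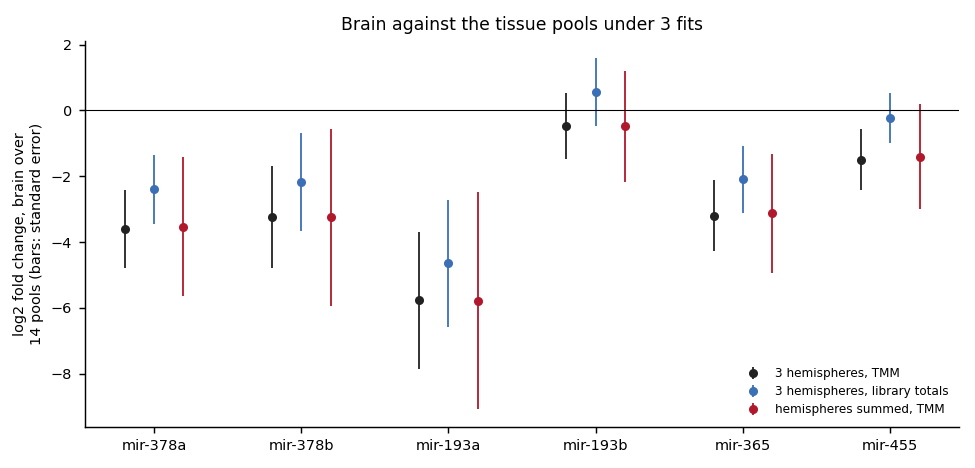
log2 fold change of brain over the 14 pools for each precursor under 3 edgeR fits, with bars for 1 standard error. The estimates of mir-378a, mir-378b, mir-193a and mir-365 lie below 0 in all 3 fits, the errors widen when the hemispheres are summed, and mir-193b changes sign with library totals.

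In serum, mir-378a had the most reads of the members. Its 3 libraries had 14, 24 and 24 reads, or 1853, 2210 and 3026 RPM (mean 2363 ± 602, SD, n = 3), a range that encloses the 3 hemispheres. The edgeR log2 fold change of brain over serum was −0.04 (SE 0.22, adjusted p = 0.877), in a comparison where 44.7% of 235 precursors were higher in brain and 18.7% lower. The count filter could be met by the 3 hemispheres alone, and the serum libraries were shallow, so these shares depend on filter and depth. The sign and the call of mir-378a depended on the filter as well. With at least 10 counts required in all 6 libraries its log2 fold change was 1.19 (edgeR adjusted p = 0.000433, 51 tested). The median change of all precursors tested went from 2.15 to 0.68. Without hemisphere 1, 2 or 3 it was 0.91, 0.86 and 0.97 (edgeR adjusted p = 0.00435, 0.00587 and 0.00256), with 68 tested, and without serum replicate 2 it was 0.05. miR-3557-5p was at 0.86 (SE 0.41, edgeR adjusted p = 0.0589) in the mature list. Its call depended on the setting. Without hemisphere 1, 2 or 3 it was called higher in brain (1.72, 1.72 and 1.52, edgeR adjusted p = 0.000577, 0.000494 and 0.00806). It was also called without serum replicate 1, 2 or 3 (0.85, 0.79 and 1.34), with no count filter (1.75) and by DESeq2 (0.60). It was not called with library totals (0.39), DESeq2 size factors in edgeR (0.60) or the replicate block (0.92). In the mature list, under the main filter and with the same limit, 52.8% of 212 arms were higher in brain and 14.2% lower.

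The other members were near or below the serum floor. mir-365 had 2, 1 and 0 reads in the 3 serum libraries, mir-193b 0, 0 and 2, and mir-455 0, 0 and 1. mir-193a and mir-378b had 0 of 26348 reads, with a Wilson upper bound of 146 RPM, more than either reached in brain. mir-455 passed the filter with 79 reads in brain and 1 in serum (−0.24, SE 1.53, edgeR adjusted p = 0.886), and its ratio of summed levels was 0.962 (0.168 to 38.5). mir-365 and mir-193b did not pass the filter of the main test. Their summed counts gave brain at 0.0365 of serum (0.00912 to 0.210) for mir-365, from 9 and 3 reads, and at 0.0974 (0.0229 to 0.873) for mir-193b, from 16 and 2 reads, both intervals below 1 for counting error. With no count filter, edgeR called mir-365 lower in brain (−4.28, SE 1.48, adjusted p = 0.00960) and did not call mir-193b (−2.87, SE 1.58, adjusted p = 0.128). The call of mir-365 rests on serum counts below the 3-read floor in every library. Its arm miR-365-3p was not called in that setting (−3.32, SE 1.64, edgeR adjusted p = 0.113). Of the 372 precursors fitted there, 140 were higher and 53 lower in brain at an unadjusted edgeR p under 0.05. For mir-193a, mir-378b and mir-455 a difference was not detectable at this depth.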

How the data were processed

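TruSeq small RNA libraries were run on a MiSeq. The authors trimmed bases with a phred score under 20, used Bowtie to place reads on the Rn5 genome, and counted them in Partek Flow or Strand NGS against miRBase (release 21 in the deposited lists) and RefSeq. The submitters' processing notes name Partek and Bowtie without versions. The values the authors deposited are estimated counts of reads per miRNA, not normalized, with the same reads counted under 3 stacked annotations. No coordinates are given, since the reference tables used here are of another build (GRCr8).

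Each level was divided by the total of its own annotation (RPM). Tissue comparisons used log2(RPM + 1) minus the median of the miRNA over 15 tissues, with brain entered as the mean RPM of its 3 libraries. Wilson and exact intervals are at 95%. Estimated counts were rounded for edgeR's quasi-likelihood test (edgeR 4.0.16, R 4.3.3, TMM, at least 10 counts in at least 3 libraries, Benjamini-Hochberg adjustment over all features tested, threshold 0.05). DESeq2 1.42.0 was an alternative. Standard errors were derived from the F statistic. The procedure was tested on simulated counts. Levels were computed in Python 3.11.15 (SciPy 1.17.1) and plotted with Matplotlib 3.10.9.

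All members were named, with the 3 precursors most like each by Pearson r, and from the fat and lipid list the leading ones. Members and lists were chosen with earlier results of these data known. P-values of brain against serum measure the spread between these libraries. Alternatives covered scaling, count filter, pseudocount, reference tissues, annotation, libraries left out and the replicate block. The human, drinking and stem cell experiments were not analysed here.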

Additional observations from a re-analysis of the deposited data

How the results depend on the processing

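The counts of calls moved more than the levels did. For brain against the pools, 71 precursors were higher and 55 lower in brain. These became 123 and 24 with library totals and 12 and 0 with the hemispheres summed (21 and 15 at an unadjusted p under 0.05), and 24 to 26 and 14 to 16 with each hemisphere left out. DESeq2 called 119 lower, and it also called mir-378b and mir-455. Among mature arms, 58 higher became 94 without a count filter, 7 with the hemispheres summed, 88 without skeletal muscle and 22 to 26 without 1 hemisphere. The 70 lower arms became 28 with library totals, 0 summed (14 at an unadjusted p under 0.05) and 15 to 19 without 1 hemisphere. For brain against serum, 105 precursors higher and 44 lower became 26 and 20 with 10 counts in all 6 libraries, and 29 to 102 and 25 to 43 with 1 library left out. The mature counts of 112 and 30 became 14 and 12, and 19 to 101 and 17 to 29. The log2 fold change of mir-378a against serum turned to 0.075 with library totals, 0.49 without a filter and 1.19 with 10 counts in all 6, and ran from −0.12 to 0.97 with 1 library left out. That of mir-455 turned to 0.32 without a filter and ran from −0.82 to 7.00 with 1 library left out, the latter without serum replicate 3, which held its 1 read, and mir-193b against the pools to 0.55 with library totals. Brain and serum share replicate numbers, but the sources do not say which serum belongs to which hemisphere. Deviations of same-numbered libraries from their group means correlated at 0.10, −0.11 and −0.08 over 75 precursors, and hemispheres 2 and 3 correlated best with another number. With the replicate block, mir-378a was −0.02 (edgeR adjusted p = 0.937), mir-455 was −0.23, and 97 precursors were higher and 44 lower. The block changed no member's call. Members at least 1 above the tissue median in skeletal muscle went from 4 of 6 to 2 of 4 with 100 RPM required and 2 of 4 in the RefSeq list, where members dropped out, and in heart from 2 of 6 to 1 of 6 with TMM and 1 of 4 in RefSeq. In fat, 1 of 6 became 0 of 6 with 10 RPM added, 0 of 4 with 100 RPM required and 4 of 8 over mature arms. It was also 4 of 8 with the miR-3557 names added, which put miR-378a-3p past 1 in skeletal muscle and heart but not in fat. That alternative, the scaled ratios between tissues and the likenesses without pancreas were chosen after seeing the data. The median share of miR-455-3p was 0% over 13 libraries with at least 10 arm reads. That count left out small intestine, at 16.7% (4.70 to 44.8) from 12 arm reads. Where no value shows it, the cause was not tested. All pool levels lack replicates, and serum depth limits every member, mir-378a included.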
